A study of Mus musculus with 4 samples.

Results

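Ependymal nuclei were examined in single-nucleus RNA-seq libraries of the mouse forebrain. A nucleus was taken as ependymal when 6 genes of the motile cilium (Dnah12, Cfap299, Spag16, Dnah6, Hydin and Cfap54) summed to at least 10 unique molecular identifiers (UMIs, counts of captured transcripts). It also had to lack any UMI of Gfy, Stoml3 and Cyp2g1, which served as nasal epithelium genes. At most 1 UMI was allowed over the neuronal genes Rbfox3, Slc17a7, Slc17a6, Gad1 and Gad2, and at most 1 over Mog, Csf1r and Cldn5 of oligodendrocytes, microglia and endothelium. The rule found 120 of 78728 nuclei.

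All mice were C57BL/6J males that received an adeno-associated virus of serotype 9 into the cisterna magna at 4 weeks of age, and tissue was taken at 8 weeks. The AAV-VEGF-C virus encoded mouse VEGF-C in its full-length form, and the AAV-CTRL virus encoded a soluble VEGFR-3 piece that cannot bind the ligand, so control animals also made a viral protein. Brains of 5 mice were pooled per virus, and each pool gave 1 library labelled cortex and 1 labelled striatum. Both regions of a virus therefore came from the same animals, single mice could not be told apart, and no difference between the viruses had a replicate. Values given 4 in a row follow the order cortex AAV-CTRL, then AAV-VEGF-C of the cortex label, then striatum AAV-CTRL, then AAV-VEGF-C of the striatum label.

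Ependymal cells line the brain ventricles and carry tufts of motile cilia that move cerebrospinal fluid along the wall. The core of such a cilium, the axoneme, is a ring of microtubule doublets around a central pair. Dynein motors slide the doublets against each other, radial spokes and the central apparatus time their strokes, and nexin links hold the ring together. The same wall holds tanycytes, which are ependymal cells of the ventricle floor at the hypothalamus with few or no motile cilia, and it continues into the choroid plexus epithelium, which secretes cerebrospinal fluid.

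The 4 libraries gave 26, 12, 59 and 23 ependymal nuclei. They held 93356, 83691, 181409 and 119726 UMIs in all, with medians of 3141, 4235, 2401 and 3470 UMIs per nucleus against 2622, 2871, 2272 and 2646 in the other nuclei. Mitochondrial transcripts made up a median of 2.34%, 2.83%, 2.15% and 1.85% of UMIs in ependymal nuclei and 0.611%, 0.860%, 0.792% and 0.964% in the others, so that ependymal nuclei were higher in every library. Pairs of libraries shared 76 to 118 barcodes, and none was that of an ependymal nucleus in both libraries of a pair. A doublet caller marked 4.31% to 7.95% of nuclei per library and 0 of the 120.

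The 6 genes of the rule stood apart in few nuclei. Of 20784 nuclei that passed the exclusions, 20463 held 0 to 2 UMIs of them, 201 held 3 to 9 and 120 held 10 or more. Just outside the threshold, at 9 UMIs, lay 1, 1, 2 and 3 nuclei, and just inside it, at 10, lay 1, 1, 7 and 0. The largest sums in a library were 69, 116, 84 and 109 UMIs. Cfap299, which the files list under its older name 1700007G11Rik, was found in 110 of the 120 nuclei, Dnah12 in 103, Spag16 in 110, Dnah6 in 109, Hydin in 99 and Cfap54 in 103.

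**Figure D1:**
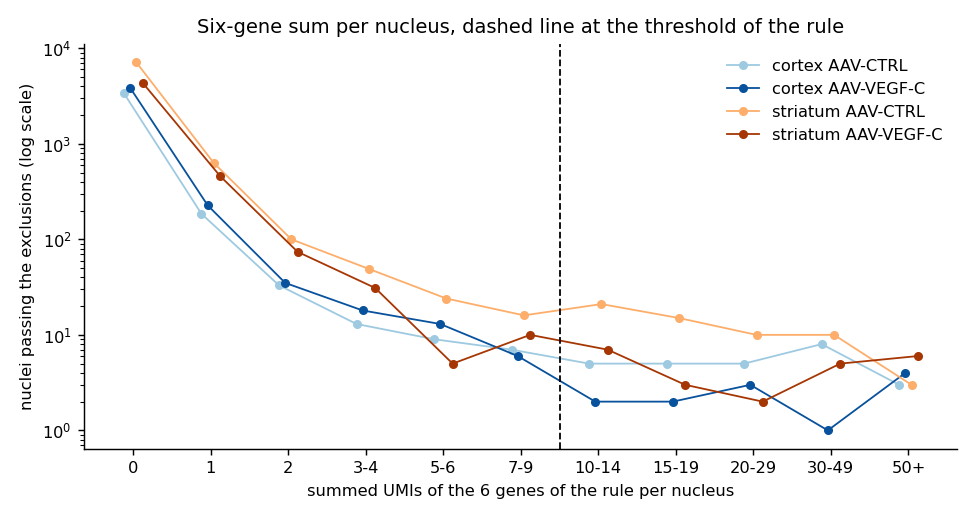
Number of nuclei (log axis) that passed the exclusions, by the summed UMIs of the 6 genes of the rule, 1 line per library. Counts fall steeply from 0 to 2 UMIs, and a flat tail runs on past the dashed threshold of 10 UMIs, where 26, 12, 59 and 23 nuclei lie.

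The exclusions took out more nuclei than they left. There were 359 nuclei with at least 10 UMIs of the 6 genes, namely 92, 57, 141 and 69. Nasal genes took out 22, 21, 35 and 14 of them. Of those without nasal UMIs, neuronal genes took out 44, 23, 44 and 29, and the remaining exclusion 0, 1, 3 and 3. Of the 92 nuclei with nasal UMIs, 89 held UMIs of Stoml3 alone among the 3 nasal genes. Stoml3 encodes a stomatin-family membrane protein known from olfactory sensory neurons. Over the 92 nuclei there were 224 UMIs of Stoml3, 7 of Cyp2g1 and 1 of Gfy.

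Of these, 39 nuclei (7, 8, 19 and 5) met every other condition and fell out through Stoml3 alone. They held more of the independent ependymal genes than the members did. A list of 17 ependymal markers summed to 8088, 9482, 6858 and 6967 CPM (counts per 1000000 UMIs) in them against 5302, 3859, 3831 and 3224 in the members. Genes of airway epithelium summed to 132, 187, 173 and 193 CPM in them and to 118, 143, 116 and 58.5 in the members. The 39 nuclei were also deeper, with medians of 8529, 7726, 3120 and 8131 UMIs, and whether they are ependymal was not tested. Counting them would have given 33, 20, 78 and 28 ependymal nuclei, and the shares and the counts of genes past 2-fold are given both ways. In the nuclei that neuronal genes took out, the ependymal list summed to 3618, 3367, 2858 and 2696 CPM.

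Ependymal markers outside the rule were high in the members in every library. All 17 genes of the list had at least 20 UMIs over the 120 nuclei, and 15 were at least 2-fold higher than in the other nuclei of the same library in all 4 libraries. The same was true of 14.5% of all 5664 genes with 20 UMIs. Since the rule chose the nuclei on this contrast, all such folds are descriptions. The list summed to 219, 184, 240 and 258 CPM in the other nuclei. At least 1 UMI of it was present in 115 of 120 members and at least 3 in 105.

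Tmem212, which encodes a transmembrane protein of ciliated cells, had 145, 86, 200 and 94 UMIs, found in 94 of the 120 nuclei. Its level was 1553, 1028, 1102 and 785 CPM against 17.7, 9.78, 15.2 and 18.1 CPM in other nuclei. With every nucleus thinned to 1000 UMIs, 80.8%, 66.7%, 59.3% and 52.2% of ependymal nuclei held a UMI of it, against 88.5%, 66.7%, 79.7% and 69.6% at full depth. Nuclei chosen by astrocyte genes, which should lack Tmem212, held one in 0.276%, 0.500%, 0.550% and 0.846% after the same thinning, so that no library's ependymal share came near its astrocyte share.

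Rarres2, which encodes the secreted protein chemerin, had 54, 51, 102 and 44 UMIs in 75 nuclei and was at least 23.3-fold higher than in other nuclei in each library. Foxj1, the forkhead factor that switches on motile cilia genes, had 18, 12, 23 and 11 UMIs in 48 nuclei. Pltp, a phospholipid transfer protein, had 94, 73, 118 and 75 UMIs in 92 nuclei. The genes of the list that missed the 2-fold mark in some library were S100b and 1110017D15Rik, with lowest ratios of 1.43 and 1.90.

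Other cell types that could enter the rule were read from their own lists. Airway epithelium genes summed to 118, 143, 116 and 58.5 CPM in the members against 11.7, 9.96, 42.8 and 23.9 in other nuclei. Of these 15 genes, 9 had 0 UMIs over the 120 nuclei, and the only gene with 20 UMIs was Trp63, with 5, 4, 9 and 6. A single member, 1 of 120, held at least 2 UMIs over 8 epithelial genes. Neuronal transcripts summed to 4145, 2724, 3837 and 5120 CPM against 20288 to 22758 in other nuclei, and 7 of their 10 genes were at least 2-fold lower in all 4 libraries, as were 4.06% of all genes. Astrocyte genes summed to 2217, 1171, 2409 and 1980 CPM against 1646 to 1990 in other nuclei.

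Choroid plexus genes went against the label. All 11 were at least 2-fold higher than in other nuclei in all 4 libraries, beside 14.5% of all genes. The list summed to 5956, 71872, 10253 and 10073 CPM. Ttr, transthyretin, the leading product of the choroid plexus, had 342, 5412, 1260 and 951 UMIs in the members, of which 5047 of the 5412 came from 1 nucleus. Most members held little of it: 20, 6, 34 and 13 nuclei had 0 UMIs of Ttr and 23, 8, 51 and 21 had at most 2. A small number of nuclei with choroid plexus transcripts is therefore part of the set, and they are described apart.

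**Figure D2:**
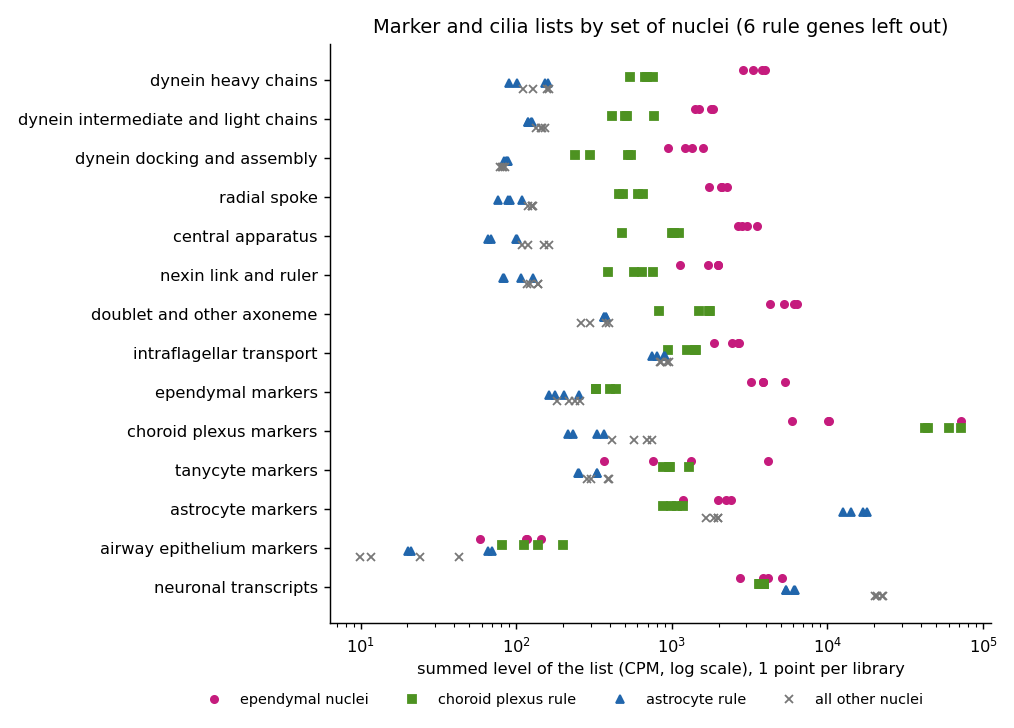
Summed level of each gene list in CPM (log axis), 1 point per library for ependymal nuclei (circles), nuclei chosen by choroid plexus genes (squares), by astrocyte genes (triangles) and all other nuclei (crosses), with the 6 genes of the rule left out. Every axoneme list is highest in ependymal nuclei in each library. The choroid plexus and astrocyte sets were limited to under 10 and at most 2 UMIs of the rule genes. The choroid plexus list reaches 71872 CPM in the ependymal nuclei of cortex AAV-VEGF-C.

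The machinery of the motile cilium was high in every part. Of 103 axoneme genes outside the rule, 83 had at least 20 UMIs. Of these, 79 were at least 2-fold higher than in other nuclei in all 4 libraries, beside 14.5% of all genes, and none was lower. Their median log2 ratio was 4.67, against 0.18 over all genes. Summed, they reached 21541, 14984, 20005 and 18041 CPM against 1021, 929, 1203 and 1198 in other nuclei. Nuclei chosen by choroid plexus genes lay between, at 5724, 6252, 5106 and 3364 CPM, but they were limited to under 10 UMIs of the 6 rule genes. Of the rest, 20 had fewer than 20 UMIs and 2 had none.

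Motors came first. Dynein heavy chains are the force-producing subunits of the axonemal arms, and 11 of 11 with enough UMIs passed 2-fold. For this count and that of each part below, the share over all genes was 14.5%. Dnah11, an outer arm heavy chain, had 66, 51, 129 and 67 UMIs, which is 707, 609, 711 and 560 CPM against 13.1, 8.81, 18.9 and 13.9 in other nuclei. Dnah5, likewise of the outer arm, had 37, 30, 60 and 53 UMIs, and Dnah9 had 85, 41, 127 and 71. Dnah2, an inner arm heavy chain, had 42, 32, 73 and 53. Dnah7a, Dnah7b and Dnah7c are close copies of each other, so that their single counts are uncertain.

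Of the intermediate and light chains, which anchor and regulate the motors, 8 of 9 passed. Dnai3, listed as Wdr63, had 27, 26, 70 and 36 UMIs and was at least 60.9-fold higher in each library. Dnal1, an outer arm light chain, had 20, 23, 60 and 38 UMIs and was higher by at least 3.49-fold. Docking and assembly factors, which build and attach the arms, passed in 8 of 8 cases. Among them Armc4 had 35, 20, 54 and 40 UMIs and Ccdc114, a docking complex protein, 28, 12, 33 and 30.

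Radial spoke genes passed in 8 of 9 cases. Cfap61, a spoke-associated protein, had 54, 43, 99 and 59 UMIs, Wdr66 had 42, 20, 66 and 38, and Rsph1, a spoke head protein, had 10, 11, 21 and 15. Rsph14 was the gene that missed, with 6, 1, 12 and 8 UMIs. All 10 central apparatus genes outside the rule passed. Spef2 had 72, 48, 120 and 89 UMIs and Spag17, like it a protein of the central pair, had 79, 49, 93 and 46.

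Nexin link and ruler genes, which set the spacing of the arms and link the doublets, passed in 11 of 12 cases. Iqcg had 16, 10, 54 and 31 UMIs, and the ruler genes Ccdc39 and Ccdc40 had 25, 14, 26 and 25 and 13, 4, 23 and 16. Efcab2 missed in 1 library by the smallest of margins, with a lowest ratio of 2.00. Doublet and other axoneme genes passed in 23 of 24 cases. Ak7, an adenylate kinase of motile cilia, had 59, 33, 113 and 61 UMIs, and Cfap43 and Cfap44, which tether inner arm motors, had 56, 36, 96 and 63 and 67, 51, 109 and 53.

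Transport and polarity genes, which cells without motile cilia use as well, stood out less. Intraflagellar transport carries building material along every kind of cilium. Of its 21 genes with enough UMIs, 8 passed 2-fold in all libraries, beside 14.5% of all genes, with a median log2 ratio of 1.58. Ift88 had 27, 15, 49 and 30 UMIs and Dync2h1, the motor of the return path, had 23, 17, 63 and 42. Planar polarity genes, which align the cilia of neighbouring cells, passed in 3 of 9 cases, beside the same 14.5%. Celsr1 was at least 17.1-fold higher with 13, 8, 21 and 6 UMIs, while Prickle1 was lower in every library with 9, 10, 12 and 3.

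Regulators of multiciliation were present in part. All 7 with 20 UMIs passed, beside 14.5% of all genes. The list summed to 2046, 1410, 1891 and 1704 CPM in the members and to 1982, 1926, 2273 and 988 in nuclei chosen by choroid plexus genes. Neither set was thus higher in every library. Rfx3, a factor that binds X-box sites in promoters of ciliary genes, had 78, 49, 173 and 121 UMIs, and Rfx2 had 17, 6, 29 and 16. Trp73, which encodes p73, had 11, 11, 13 and 9. Some genes known from the stage at which a cell makes its many basal bodies were at or near 0. Mcidas, Ccno, Foxn4 and Cdc20b had 0 UMIs in every library and Deup1 had 3, 0, 3 and 3. Myb, on the same list, was not, with 11, 5, 10 and 4 UMIs in 24 nuclei, and it passed 2-fold. E2f5 had 4, 1, 6 and 4 UMIs and E2f4 had 4, 0, 1 and 1.

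X-box sites were looked for in the 250 bases before the annotated starts of the axoneme genes (RefSeq, GRCm38.p6). The motif searched was GTNNCC, 0 to 3 bases of any kind, then GGNAAC, on both strands. It was found in 10 of the 89 axoneme genes that matched the promoter table (11.2%), and in 2.20% of all 27025 genes of the table. The half-site GTTGCC, which some of these matches contain, was found in 27 of the 89 (30.3%) and in 11.8% of all genes. The forkhead motif GTAAACA was found in 5 of the 89 (5.62%) and in 3.54% of all. A match is a run of letters and was not shown to be bound here.

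The 3 matches in genes with the most UMIs in ependymal nuclei are printed with the X-box match in capitals, 5′ to 3′ on the strand of the gene. Cfap206 is at chr4:34730207-34730456 (minus strand), Lrrc23 at chr6:124779728-124779977 (minus strand) and Iqca at chr1:90153437-90153686 (minus strand). The Lrrc23 and Iqca matches also hold the half-site.
Cfap206: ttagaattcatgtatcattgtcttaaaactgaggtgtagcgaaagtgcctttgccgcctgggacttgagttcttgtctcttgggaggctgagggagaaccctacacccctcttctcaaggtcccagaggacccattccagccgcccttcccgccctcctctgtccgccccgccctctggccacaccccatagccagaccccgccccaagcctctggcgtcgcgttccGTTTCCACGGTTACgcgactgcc
Lrrc23: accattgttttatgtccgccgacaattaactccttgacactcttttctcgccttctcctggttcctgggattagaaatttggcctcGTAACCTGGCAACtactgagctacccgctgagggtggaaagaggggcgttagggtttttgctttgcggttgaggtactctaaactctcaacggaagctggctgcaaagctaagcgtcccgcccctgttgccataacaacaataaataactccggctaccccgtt
Iqca: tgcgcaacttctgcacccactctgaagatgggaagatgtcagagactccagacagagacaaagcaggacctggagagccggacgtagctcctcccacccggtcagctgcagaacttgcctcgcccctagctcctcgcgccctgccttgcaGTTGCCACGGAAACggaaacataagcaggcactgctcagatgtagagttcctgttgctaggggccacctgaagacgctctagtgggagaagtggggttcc

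The Cfap206 match lies 23 to 10 bases before the annotated start, that of Lrrc23 164 to 152 and that of Iqca 100 to 87. All 3 genes were high in the members: Cfap206, of the radial spoke region, had 22, 13, 35 and 20 UMIs, Lrrc23 had 21, 8, 42 and 17, and Iqca, of the nexin links, had 22, 10, 29 and 15. The other matched genes were Pih1d2 and Ccdc151, which also passed 2-fold, and Cfap58, Dnaaf5, Tekt4, Ropn1l and Dnaaf6, which had 16, 14, 9, 8 and 0 UMIs over all ependymal nuclei.

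The genes that set ependymal nuclei apart most were ranked by the smallest of the 4 libraries' ratios over other nuclei, among 192 genes with at least 30 UMIs in each library. Of the leading 20, 9 were in a motile cilia list. The first was C230072F16Rik, annotated as a lincRNA (chr17:80896793-80933045, plus strand, GRCm38), with 74, 35, 101 and 68 UMIs and a ratio of at least 68.3. Next came Wdr49 (59.5), Ccdc170 (47.2), Unc5cl (44.6) and Tmem212 (43.5), where the value is the lowest ratio in any library.

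Spag17 (42.8), Cfap43 (40.7), Ak7 (38.3), Dnah11 (37.7) and Cfap61 (34.9) followed, all of them axoneme genes by the lists. The non-coding 3300002A11Rik (32.2) is annotated as antisense (chr12:99341154-99361827, plus strand), and without stated use of strand in the counting its reads cannot be told apart from those of an overlapping partner. The rest were Dnah2 (30.7), Spef2 (30.5), Cfap44 (30.1), Vwa3a (29.7), Ccdc162 (29.4), Dnah5 (27.2), the lincRNA Gm13481 (25.8), Adgrv1 (23.6), which encodes a very large adhesion receptor, and Rarres2 (23.3).

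Genes shared with radial glia, the embryonic source of ependymal cells, were also high against all other nuclei. Of 8 with enough UMIs, 5 passed 2-fold in all libraries, beside 14.5% of all genes. The list summed to 6588, 4146, 6957 and 7041 CPM in the members. Nuclei chosen by astrocyte genes held more of it, at 8464, 8335, 7962 and 7311 CPM, though its gene Slc1a3 had also served to pick them. Sox9, a transcription factor of glia, had 26, 15, 40 and 30 UMIs and was higher by at least 8.98-fold. Zbtb20 had 273, 198, 572 and 415 UMIs, at least 3.34-fold higher, and Nfia had 134, 61, 259 and 159. Ptprz1 and Sparcl1 missed, with lowest ratios of 0.895 and 1.01, both in cortex AAV-VEGF-C.

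Ependymal nuclei were not uniform, and 3 small groups were set apart after their values had been seen. At least 5 UMIs of the choroid plexus genes used to pick such nuclei were present in 16 members (2, 4, 7 and 3). Over these 16, choroid plexus genes summed to 82934 CPM, the axoneme genes to 6466 and the ependymal list to 840. Over the 94 members in none of the groups, the same sums were 862, 25454 and 5961. These 94 were not free of choroid plexus genes and held 93 UMIs of Ttr and 89 of Htr2c. Here and below, nuclei with choroid plexus transcripts means only the 16 that reached 5 UMIs. The 16 nuclei held 9 UMIs of Tmem212 out of 525 and 4 of Rarres2 out of 251, so that these markers lay almost wholly outside them. They held 8 of 64 UMIs of Foxj1 and 37 of 360 of Pltp. The 16 were mixed, and those UMIs of Tmem212 and Rarres2 all lay in the 3 nuclei of striatum AAV-VEGF-C. There, 1 nucleus with 7 UMIs of the choroid plexus genes held 60 of the rule genes, 36 of the ependymal list and 0 of Ttr.

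Gmnc went the other way. It encodes the geminin-like factor at the head of the multiciliation pathway, and the members held 26, 22, 43 and 14 UMIs of it. Of these 105 UMIs, 83 were in the 16 nuclei with choroid plexus transcripts and 22 in the other 94. Nuclei chosen by choroid plexus genes alone held Gmnc at 939, 867, 1148 and 500 CPM, whereas the ependymal nuclei without choroid plexus transcripts held 144, 0, 46.1 and 32.9 CPM. Foxj1 was split in the opposite sense, with 8 UMIs in the 16 nuclei and 52 in the 94.

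A second group of 4 nuclei held at least 10 UMIs of the tanycyte list without choroid plexus transcripts, all under the striatum label, 1 with AAV-CTRL and 3 with AAV-VEGF-C. Their tanycyte genes summed to 10839 CPM against 244 in the 94, and their axoneme genes to 12018. The largest of them, in striatum AAV-VEGF-C, held 30383 UMIs with 132 of Col23a1, 161 of Col25a1, 34 of Frzb and 22 of Gpr50, all genes of the tanycyte list. It also held 72 UMIs of the 6 rule genes. The one in striatum AAV-CTRL held 24400 UMIs with 83 of Col23a1 and 21 of Gpr50.

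A further group of 6 nuclei held at least 5 UMIs of Sspo, which encodes SCO-spondin, the secreted protein of the subcommissural organ, a ciliated ependymal gland. They lay under the striatum label, 4 with AAV-CTRL and 2 with AAV-VEGF-C, and the cortex-labelled members held 2 and 0 UMIs of Sspo in all. Their axoneme genes summed to 16805 CPM and their ependymal list to 1611. Tmem212 had 4 UMIs and Rarres2 had 0 in these 6 nuclei.

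Depth was very uneven. The deepest member, in cortex AAV-VEGF-C, held 33732 UMIs, 40.3% of the UMIs of that library's ependymal nuclei, and 317 of its UMIs were of the choroid plexus genes used to pick such nuclei. The tanycyte-list nuclei with 24400 and 30383 UMIs made up 13.5% and 25.4% of the ependymal UMIs of their libraries. These 3 nuclei were not marked as doublets. Sums over a library therefore rest in part on single nuclei, and values without these 3 nuclei are given for the genes named in each comparison where they were computed.

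**Figure D3:**
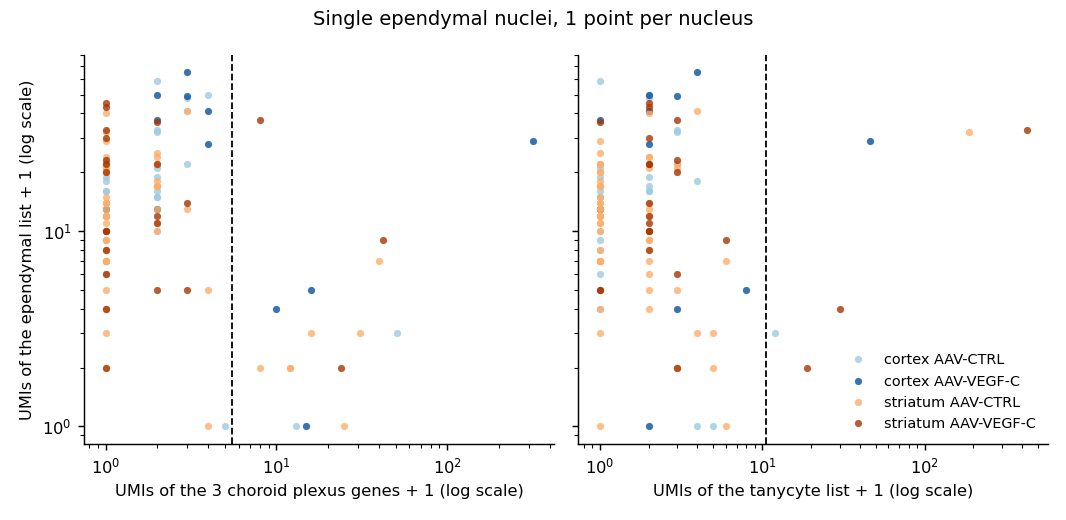
UMIs per nucleus of the ependymal list against those of the choroid plexus genes used to pick such nuclei (left) and of the tanycyte list (right). Each is plus 1 on log axes, with 1 point per ependymal nucleus, coloured by library. The left axis sums Otx2, Kcnj13, Folr1, Clic6, Kl, Slc4a5, Tmem72 and Sostdc1, although its label says 3 genes. Of the 120 nuclei, 16 lie right of the dashed line at 5 choroid plexus UMIs and 6 right of the line at 10 tanycyte UMIs, and most others lie at the left edge with higher ependymal counts.

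Whether VEGF-C went with another share of ependymal nuclei was asked within each region label. They made up 0.151% of nuclei in cortex AAV-CTRL (95% exact binomial interval 0.0990% to 0.222%, counting error only, as for all intervals here, since nuclei of 1 pool are no replicates) and 0.0589% in cortex AAV-VEGF-C (0.0304% to 0.103%). Under the striatum label the shares were 0.249% (0.189% to 0.321%) in AAV-CTRL and 0.132% (0.0835% to 0.198%) in AAV-VEGF-C. The AAV-VEGF-C library was lower under both labels.

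The log2 ratio of AAV-VEGF-C over AAV-CTRL was -1.36 under the cortex label (exact conditional interval -2.48 to -0.32) and -0.92 under the striatum label (-1.68 to -0.20). It was negative under every alternative tried, from -1.83 to -0.62 and from -1.04 to -0.38. The interval took in 0 at a threshold of 5 UMIs (-0.68, -1.40 to 0.02) and of 20 UMIs (-1.25, -2.68 to 0.06) for the cortex label, and at 20 UMIs (-0.38, -1.49 to 0.66) for the striatum label. With the 39 nuclei that Stoml3 removed, the ratios were -0.97 (-1.85 to -0.13) and -1.04 (-1.71 to -0.40).

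How much ventricle wall each dissection took is not given in the sources used here, and a lower share of nuclei cannot be told apart from tissue with less of the wall. The choroid plexus hangs in the same ventricles. Nuclei chosen by its genes made up 0.169%, 0.216%, 0.185% and 0.120% of nuclei, a log2 ratio of 0.35 (-0.35 to 1.08) for the cortex label and -0.63 (-1.45 to 0.16) for the striatum label. Astrocytes gave 4.23%, 4.93%, 6.15% and 5.43%, with ratios of 0.22 (0.08 to 0.36) and -0.18 (-0.30 to -0.06). The choroid plexus share was thus higher in cortex AAV-VEGF-C where the ependymal share was lower, with an interval that took in 0. Under the striatum label all 3 shares were lower in AAV-VEGF-C. Between regions, the striatum label had the larger ependymal share under AAV-CTRL (log2 ratio 0.72, 0.03 to 1.44) and under AAV-VEGF-C (1.16, 0.09 to 2.30).

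**Figure D4:**
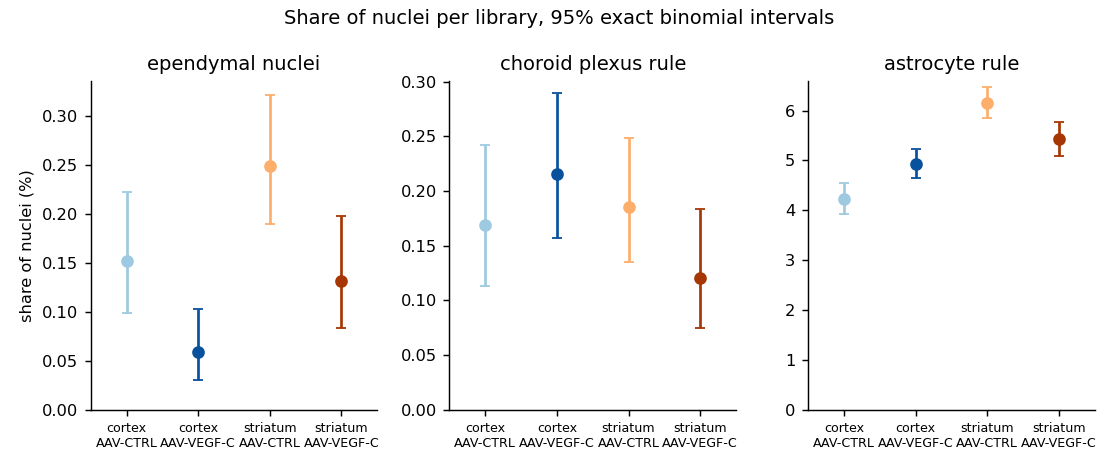
Share of nuclei in each library with 95% exact binomial intervals, for ependymal nuclei, nuclei chosen by choroid plexus genes and nuclei chosen by astrocyte genes, on linear axes from 0. The ependymal share is lower in AAV-VEGF-C than in AAV-CTRL under both region labels, 0.0589% against 0.151% and 0.132% against 0.249%. The other sets are also lower in AAV-VEGF-C under the striatum label, and higher under the cortex label.

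Expression in ependymal nuclei was compared between the viruses by size alone. UMIs were summed per library and scaled to CPM, and genes with at least 30 UMIs over a pair of libraries were called at 2-fold. Under the cortex label 112 of 1145 genes were higher in AAV-VEGF-C (9.78%) and 122 lower (10.7%), and under the striatum label 78 of 2450 were higher (3.18%) and 112 lower (4.57%). Without the 3 deepest nuclei, the cortex counts were 17 higher and 29 lower, and the striatum counts 50 and 77. With the 39 nuclei that Stoml3 removed, 114 of 2763 genes were higher and 97 lower under the cortex label, and 98 of 3754 higher and 128 lower under the striatum label.

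The axoneme genes as a sum had a log2 ratio of -0.52 (-0.63 to -0.42) under the cortex label and -0.15 (-0.23 to -0.07) under the striatum label. Of 40 axoneme genes compared under the cortex label, 0 were 2-fold higher and 5 lower, against 9.78% and 10.7% of all genes, so that the lower share was near that of all genes. Of 58 under the striatum label, 0 were higher and 1 lower, against 3.18% and 4.57% of all genes. Their median log2 ratios were -0.63 and -0.20, beside -0.24 and -0.07 over all genes compared.

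Without the 16 nuclei with choroid plexus transcripts, the cortex ratio turned to 0.25 (0.14 to 0.36) and the striatum ratio was -0.12 (-0.21 to -0.04). The ependymal list behaved alike, from -0.46 (-0.66 to -0.25) to 0.33 (0.11 to 0.54) for the cortex label and from -0.25 (-0.43 to -0.07) to -0.27 (-0.46 to -0.08) for the striatum label. The cortex direction thus depended on 6 of its 38 nuclei, 2 in AAV-CTRL and 4 in AAV-VEGF-C. The choroid plexus list itself went from 3.59 (3.47 to 3.72) to -1.55 (-2.44 to -0.75) under the cortex label.

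**Figure D5:**
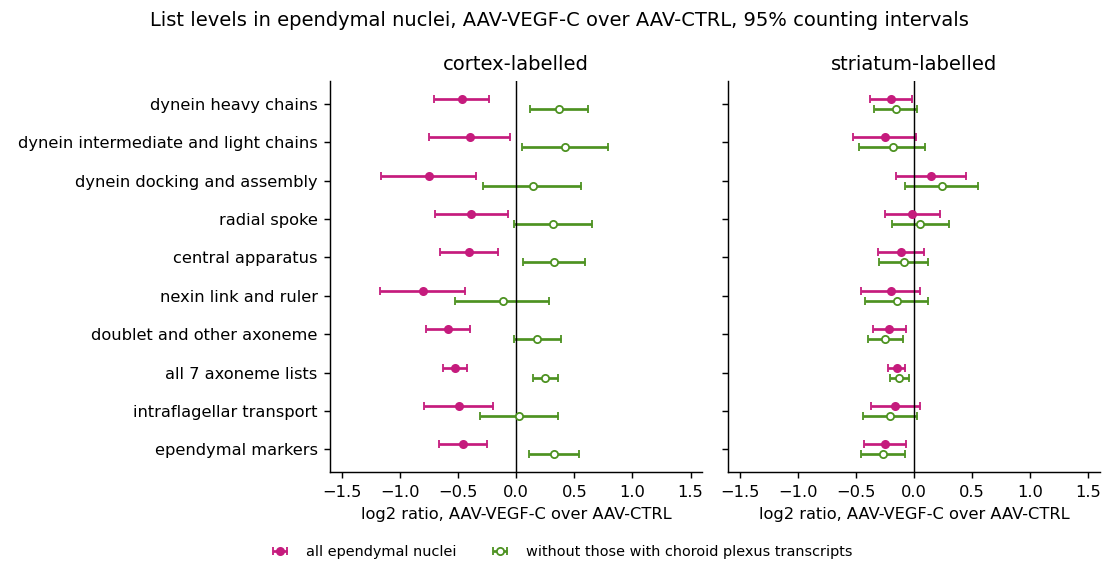
Log2 ratio of each list's summed level, AAV-VEGF-C over AAV-CTRL, in ependymal nuclei under the cortex label (left) and the striatum label (right), with 95% exact counting intervals. Filled points are all ependymal nuclei, and open points leave out the 16 with at least 5 UMIs of the choroid plexus genes. Under the cortex label the sum of all 7 axoneme lists moves from -0.52 to 0.25 when those nuclei are left out, and under the striatum label from -0.15 to -0.12.

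Genes past 2-fold under both labels were few, 3 of 1098 higher (0.273%) and 4 lower (0.364%). Higher were Rps16, a ribosomal protein gene, Fxyd1, which encodes a regulator of the sodium pump, and Itgb5, an integrin subunit. Rps16 had 14, 36, 18 and 31 UMIs, with log2 ratios of 1.52 (0.59 to 2.53) and 1.38 (0.50 to 2.31). Fxyd1 had 12, 23, 12 and 23 UMIs and Itgb5 had 9, 23, 10 and 23. In cortex AAV-VEGF-C, 1 nucleus held 27 of the 36 UMIs of Rps16, 60.9% of those of Fxyd1 and 69.6% of those of Itgb5, and without the deepest nuclei the cortex ratios were 0.26, 0.49 and 0.54. The striatum ratios of the 3 genes without the deepest nuclei were 1.43 (0.49 to 2.40), 1.58 (0.37 to 2.87) and 1.30 (0.02 to 2.63), still past 2-fold.

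Lower under both labels were Kcnip4, a potassium channel-interacting protein, Frmd4a, a junction scaffold gene, Ndrg4 and Dnah3. Kcnip4 had 129, 54, 435 and 92 UMIs, of which 1 nucleus held 41.8% in striatum AAV-CTRL, and its ratios of -1.10 and -1.64 were -0.41 and -0.71 without the deepest nuclei. Ndrg4 had 37, 14, 57 and 14, and its ratios of -1.24 and -1.43 were -0.50 and -1.21. Frmd4a had 31, 13, 184 and 50, with 76.6% of the 184 in 1 nucleus, and without the deepest nuclei its striatum ratio went from -1.28 to 0.74. Dnah3, an inner arm heavy chain and the only cilia gene among them, had 34, 11, 74 and 23 UMIs over 59 nuclei. Its log2 ratios were -1.47 (-2.60 to -0.46) and -1.09 (-1.83 to -0.39), and -0.73 (-1.86 to 0.29) and -0.87 (-1.62 to -0.18) without the deepest nuclei. None of the 7 genes stayed past 2-fold under both labels without those 3 nuclei. With the 39 nuclei that Stoml3 removed, 1 of the 3 higher genes and 0 of the 4 lower ones did, and without the nuclei with choroid plexus transcripts 0 of 3 and 0 of 4.

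The VEGF ligands and receptors were sparse in ependymal nuclei. Of 10 genes, 3 had 20 UMIs and none was at least 2-fold higher than in other nuclei in all libraries. Flt4, which encodes VEGFR-3, the main receptor of VEGF-C, had 0 UMIs in every library, which at these depths allows up to 3 UMIs per library. Vegfc had 2, 0, 3 and 1 UMIs, and whether reads of the virus would be counted under either gene was not tested. Kdr, VEGFR-2, had 2, 7, 0 and 0, and the 7 came from 1 nucleus.

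Nrp2, a coreceptor of VEGFR-3, was the most seen of them, with 2, 2, 14 and 20 UMIs over 20 nuclei. It was past 2-fold under the striatum label (log2 ratio 1.11, 0.06 to 2.21), where 65.0% of the UMIs in AAV-VEGF-C came from 1 nucleus, and the ratio was 0.04 without the deepest nuclei. Vegfb had 4, 5, 10 and 4 UMIs, Flt1 had 2, 8, 11 and 1, Nrp1 had 1, 6, 5 and 2, Vegfd had 2, 2, 6 and 1, Vegfa had 1, 2, 5 and 2, and Pgf had 0, 1, 1 and 1. Flt1 under the striatum label, with 11 UMIs against 1, had a ratio of -2.86 (-8.29 to -0.08), and 6 of the 11 came from 1 nucleus. The 10 genes as a sum had ratios of 1.20 (0.30 to 2.16) under the cortex label and -0.18 (-0.86 to 0.47) under the striatum label, and of 0.40 (-1.08 to 1.78) and 0.32 (-0.41 to 1.04) without the nuclei with choroid plexus transcripts.

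Ependymal nuclei of the striatum label were set against those of the cortex label within each virus. Of 1283 genes, 34 were at least 2-fold higher under the striatum label with both viruses (2.65%) and 10 lower (0.779%). Col23a1, Slit2 and Cst3 were among the higher ones. Cst3, which encodes cystatin C, had ratios of 1.56 and 1.34, and of 0.18 and 0.40 without the 3 deepest nuclei. Col23a1, a collagen gene of the tanycyte list, had 1, 1, 94 and 158 UMIs, and without the deepest nuclei 11 against 1 with AAV-CTRL (2.71, -0.07 to 8.14) and 26 against 1 with AAV-VEGF-C (3.86, 1.26 to 9.22). Slit2, an axon guidance ligand, had 26, 25, 312 and 199 UMIs, with 72.8% and 72.4% of the striatum UMIs in 1 nucleus each, and its ratios of 2.63 and 2.48 were 0.96 and 1.62 without the deepest nuclei.

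Other genes of the comparison moved alike outside the ependymal nuclei. Nrgn, a neuronal transcript of the cortex, had 71, 33, 21 and 8 UMIs, a ratio of -2.72 with AAV-CTRL and -2.56 with AAV-VEGF-C, and -3.03 and -3.52 in all other nuclei. Without the deepest members its ratios were -2.51 and -2.84. Camk2n1, Lmo4 and Mef2c, like Nrgn, were lower both in the members and in the others. How much of this was RNA free in the suspension was not tested.

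Tm4sf1, which encodes a membrane protein, did not follow the other nuclei. It had 49, 38, 36 and 22 UMIs over 65 ependymal nuclei, or 525, 454, 198 and 184 CPM, and was lower under the striatum label by a log2 ratio of -1.40 (-2.07 to -0.75) with AAV-CTRL and -1.31 (-2.13 to -0.51) with AAV-VEGF-C. In other nuclei it was 0.22 and 0.49, and without the 3 deepest members -1.19 and -1.33. Gm19935, annotated as protein-coding, had 22, 22, 11 and 11 UMIs with ratios of -1.96 (-3.15 to -0.85) and -1.52 (-2.71 to -0.41), against -0.11 and 0.48 in other nuclei, and the second was -0.98 (-2.37 to 0.40) without the deepest members. Nrg1, the gene of neuregulin 1, had ratios of -1.73 and -2.12 in the members and of -0.86 and -1.01 elsewhere, with 43.0% of its UMIs of cortex AAV-VEGF-C in 1 nucleus. Without the deepest members they were -1.52 and -2.44.

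Of the factors that mark brain regions, Tcf7l2, a factor high in the thalamus, had 13, 12, 75 and 34 UMIs and Zic1, a factor of midline tissue, had 3, 4, 26 and 9. The Tcf7l2 ratios of striatum over cortex label were 1.57 (0.71 to 2.54) and 0.99 (0.00 to 2.07), and 2.73 and 2.97 in all other nuclei. Without the deepest members they were 1.22 (0.32 to 2.23) and 0.58 (-0.58 to 1.87). The difference of Tcf7l2 was thus larger in the other nuclei than in the members. Of 26 such factors, 5 had 20 UMIs and 9 had none.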

How the data were processed

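Nuclei of 4 libraries were captured with a droplet 3′ kit, and the authors deposited, per library, a filtered matrix of UMI counts per gene and nucleus. The file headers name Cell Ranger 5.0.1, the submitters' processing notes Cell Ranger 5.1.1 and the mm10 build, and use of introns and of strand in the counting is not given in the sources used here. All deposited nuclei were kept, and doublets were called with Scrublet in scanpy and left out in an alternative only. The UMIs of the ependymal nuclei were summed per library and divided by their total to give CPM. With 1 library per group no test was made, and differences were read by size, with exact Poisson, Clopper-Pearson and conditional binomial intervals (95%). Gene positions came from the GENCODE annotation of GRCm38. Nuclei set as choroid plexus held at least 5 UMIs over Otx2, Kcnj13, Folr1, Clic6, Kl, Slc4a5, Tmem72 and Sostdc1, and under 10 over the 6 rule genes. Those set as astrocytes held at least 20 over Slc1a2, Slc1a3, Gja1, Aqp4, Slc4a4 and Gpc5, and at most 2 over the 6 rule genes. The exclusions of the rule were applied to both sets. Named were the 20 genes with the largest ratio over other nuclei, up to 3 genes per list with the most UMIs, all VEGF genes and genes past 2-fold under both region or virus labels. The single values of 2 genes are not reported here. Further genes named as examples were chosen after their values were seen. Members and lists were chosen with earlier results of these data known. The counts were checked on simulated data. Alternatives changed the UMI threshold, the exclusions, the scaling and the minimum count, and leaving out nuclei with choroid plexus transcripts or over 20000 UMIs and keeping those with Stoml3 were added after the data were seen.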

Additional observations from a re-analysis of the deposited data

How the results depend on the processing

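No paired analysis was possible because the results come from no test, with 1 library per group. The cortex and striatum libraries of a virus came from the same pool, and region ratios are given within each of the 2 pools. The log2 ratio of the ependymal share was below 0 under every alternative and label, and the number of axoneme genes at least 2-fold higher in ependymal than in other nuclei was 74 to 88 against 79.

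Counts of genes past 2-fold between the viruses moved more. Under the cortex label the 112 higher genes became 18 without nuclei with choroid plexus transcripts, 17 without nuclei over 20000 UMIs, 20 at a minimum of 100 UMIs and 493 at 10. The 122 lower ones became 36, 29, 4 and 744 under the same settings, 78 with size factors by the median of ratios and 65 with the mean over nuclei. Under the striatum label the 78 higher became 50 without nuclei over 20000 UMIs, 14 at a minimum of 100 and 514 at 10. The 112 lower became 9 and 692 at those minimums, 174 with the mean over nuclei, 188 at a threshold of 5 UMIs and 43 at 20. The 3 genes higher under both labels became 1 at a threshold of 5, 5 at 20, and 0 without choroid plexus transcripts or without nuclei over 20000 UMIs, and none of the 3 was among the 5, nor among the 2 with the mean over nuclei. The 4 lower became 9 at a threshold of 20, 0 without nuclei over 20000 UMIs and 1 with the mean over nuclei, which was none of the 4. None of the 4 was among the 5 without choroid plexus transcripts or the 3 with Stoml3 kept. Genes compared numbered 141 and 4432 at minimums of 100 and 10 under the cortex label and 346 and 6847 under the striatum label, against 1145 and 2450. The causes were not tested.

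The direction reversed for Frmd4a under the striatum label (0.74 without nuclei over 20000 UMIs), for Gmnc under the striatum label (0.0062 at a threshold of 20), and under the cortex label for Enpp2 (-2.76) and Ttr (-3.26) without nuclei with choroid plexus transcripts and for Enpp2 (-0.16) without nuclei over 20000 UMIs. Size factors moved the median ratio of all genes under the cortex label from -0.24 to -0.06.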

Other observations

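Water and ion transport genes were read from a list of 16, of which 13 had at least 20 UMIs. Of these, 6 were at least 2-fold higher in ependymal than in other nuclei in all 4 libraries, beside 14.5% of all genes. The list summed to 2346, 2712, 2607 and 2564 CPM in the members. Nuclei chosen by astrocyte genes held more, at 5920, 6103, 8471 and 8306 CPM, though Aqp4, Gja1 and Slc4a4 had also served to pick them. Gja1, a gap junction protein, had 34, 12, 64 and 47 UMIs, and Aqp4, the water channel of glia, had 36, 27, 45 and 25. Aqp1, the water channel of the choroid plexus, had 1, 18, 2 and 3 UMIs, and 17 of the 18 in cortex AAV-VEGF-C, the library with the most choroid plexus transcripts, came from 1 nucleus.

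Dividing and newborn cells left no trace above the limit that 0 counts allow: Mki67, Top2a and Dlx2 had 0 UMIs in every library, and 2 of the 11 genes of the stem cell and neuroblast list had 20 UMIs. The interferon and antigen presentation list had 1 of 16 genes at that level, H2-K1, with 1, 6, 15 and 8 UMIs. Among stress and immediate early genes 3 of 13 reached it, none of them 2-fold higher in all libraries, and Hsp90aa1, a heat shock protein, had 100, 75, 148 and 122 UMIs. Egr1, an immediate early gene, had 20, 4, 8 and 1. Of the microglia list, 2 of 8 genes had 20 UMIs, and of the vascular list, 1 of 10.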
